A study of Mus musculus with 3 samples.

Results

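Genes that link blood flow to clotting at the vessel wall, namely Klf2, Klf4, Thbd, Procr, Vwf, Plat, Tfpi, Thbs1 and F8, were chosen by symbol and followed through single-cell RNA sequencing of Peyer's patch (PP) endothelial cells (EC). All 9 were present once among the 31053 genes common to the 3 libraries. The study asked whether COUP-TFII, the transcription factor encoded by Nr2f2 that is known for specifying veins, controls mucosal vascular addressins. The control library was titled WT and came from C57BL/6 mice. The 2 libraries labelled COUPOE, replicates 1 and 2, came from CDH5(PAC)CreERT2;COUP-TFIIOE/OE mice, in which tamoxifen releases COUP-TFII expression in cells that use the Cdh5 (VE-cadherin) promoter. By the study's methods, mice were 6 to 10 weeks old, cells were taken 14 to 19 days after tamoxifen, and male and female cohorts were combined. The exact day of each library is not given in the sources used here. The study's methods name littermates without the cre transgene as controls, and whether the control library held such littermates is not given in the sources used here. The number of mice per library is not given either, so no p-value below is known to measure the spread between mice. Tests between endothelial subsets fit the library as a block and rest on how subset differences vary across libraries. The test of COUPOE against control rests on the spread between libraries. Either kind of spread may be technical.

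KLF2 and KLF4 are zinc finger factors that endothelium makes under laminar shear through the MEKK3, ERK5 and MEF2 pathway, and they are known to keep vessels anticoagulant. Thrombomodulin (Thbd) binds thrombin and, with the endothelial protein C receptor (Procr), turns it into an activator of protein C, while tissue factor pathway inhibitor (Tfpi) blocks the start of coagulation and tissue plasminogen activator (Plat) starts fibrin breakdown. On the other side stand von Willebrand factor (Vwf), which endothelium stores in Weibel-Palade bodies and which catches platelets, factor VIII (F8), which travels in plasma bound to it, and thrombospondin-1 (Thbs1), a matrix glycoprotein that restrains angiogenesis. Vwf is a textbook marker of endothelium that is most abundant in veins.

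The genes lie apart in the genome on mm10 (GRCm38), with 4 on chromosome 2, namely Thbs1 (chr2:118111876-118127133, plus strand), Thbd (chr2:148404466-148408188, minus), Procr (chr2:155751117-155755471, plus) and Tfpi (chr2:84432855-84476775, minus). Klf2 (chr8:72319033-72321656) and Plat (chr8:22757727-22782844) are on the plus strand of chromosome 8, Klf4 (chr4:55527143-55532466) is on the minus strand of chromosome 4, Vwf (chr6:125546774-125686679) is on the plus strand of chromosome 6 and F8 (chrX:75172715-75382615) is on the minus strand of chromosome X. F8 overlaps 1 annotated gene on its own strand and 2 on the other, and Thbs1 overlaps 1 on the other strand, so part of their counts may belong to a neighbour.

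Promoter sequence outside the annotated gene was taken from RefSeq (GRCm38.p6) for 4 of the 9 genes, Klf2, Klf4, Procr and Tfpi, and not used for Thbd, Vwf, Plat, Thbs1 and F8. The first 3 are shown, Klf2 and Klf4 because their levels went together across EC subsets and Procr because it was the member that reached the 2-fold rule downward in COUPOE arterial EC. The 250 bases before the RefSeq start were searched on both strands for the MEF2 motif (CTA and TAG with any 4 bases between them), the KLF motif CCACCC and the COUP-TFII half-site AGGTCA, which 3.20%, 28.1% and 14.0% of all 32851 promoters held. Capitals mark matches within the stretch shown, which stops where the annotated gene begins, 5′ to 3′ on the gene's own strand.

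Klf2, chr8:72318812-72319032, plus strand: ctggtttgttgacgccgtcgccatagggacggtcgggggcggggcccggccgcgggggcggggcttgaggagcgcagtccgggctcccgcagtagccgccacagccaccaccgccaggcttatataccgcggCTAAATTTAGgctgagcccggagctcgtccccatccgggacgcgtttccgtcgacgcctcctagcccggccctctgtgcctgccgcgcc
Klf4, chr4:55532476-55532725, minus strand: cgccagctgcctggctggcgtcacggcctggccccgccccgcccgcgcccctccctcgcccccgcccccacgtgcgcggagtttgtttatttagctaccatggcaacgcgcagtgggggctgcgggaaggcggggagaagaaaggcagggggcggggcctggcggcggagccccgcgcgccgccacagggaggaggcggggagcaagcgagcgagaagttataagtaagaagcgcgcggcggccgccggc
Procr, chr2:155750967-155751116, plus strand: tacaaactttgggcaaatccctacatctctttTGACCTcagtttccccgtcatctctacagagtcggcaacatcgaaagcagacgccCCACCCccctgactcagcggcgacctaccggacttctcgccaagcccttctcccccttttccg

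The Klf2 stretch held 1 MEF2 match, the kind of site through which shear is known to reach this gene, and a further KLF motif lay closer to the start than the bases shown. The Klf4 window held none of the 3 motifs, and the Procr window held 1 COUP-TFII half-site and 1 KLF motif. These are matches of letters, not binding sites.

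After filtering, the control library held 5341 cells and the COUPOE libraries 4704 and 1239, of which 2451, 3362 and 974 were blood EC (deposited totals of 17341398, 17417260 and 3548983 UMIs, that is unique transcript molecules). Clusters were named without using the 9 genes, and 14 arterial, 12 capillary, 10 venous, 11 high endothelial and 8 lymphatic markers were used to name them. All were detected in each library's sum of that subset with at least 10 cells except Gkn3 in arterial EC of COUPOE replicate 2 and Lpl in CapEC of both COUPOE libraries. In the control library, COUPOE replicate 1 and replicate 2 there were 558, 208 and 108 arterial EC, 873, 1066 and 542 capillary EC (CapEC), 419, 778 and 93 venous EC (postcapillary venule-like), 384, 91 and 2 high EC (HEC), and 1, 922 and 127 lymphatic EC (LEC). A further 102, 1020 and 160 blood EC were left unnamed. LEC therefore gave no comparison of genotypes, and HEC only 1 COUPOE library. The control library and COUPOE replicate 2 shared 12 barcodes, and COUPOE replicate 1, the larger COUPOE library, shared 0 with either and differed in its Cell Ranger version. The control library was mostly female (540 female and 32 male cells among CapEC with a sex call, against 383 and 209 in replicate 1 and 262 and 81 in replicate 2), and its arterial and capillary cells were shallower (median 1471 UMIs in CapEC against 2189.5 and 2114.5). The control library also held 2493 fibroblasts and 204 glia, against 8 and 2 in COUPOE replicate 1 and 4 and 5 in replicate 2. Sex, depth, cell mix, library and, in replicate 1, a possible difference of kit cannot be told apart from genotype with 1 control library. Nor can Cre itself, or any difference of day after tamoxifen, be told apart from Nr2f2 overexpression.

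Nr2f2, the targeted gene, was higher in every COUPOE sum compared. It stood at 12.8 CPM (a gene's UMIs per 1000000 UMIs of the same cells) in control CapEC and at 2036 and 1159 CPM in COUPOE replicates 1 and 2. In arterial EC Nr2f2 went from 12.2 CPM to 1248 and 830 CPM, whereas venous EC, which had 251 CPM in the control library, reached 1945 and 1650 CPM. All levels below are CPM of the UMIs summed over the cells of a subset in a library, and the levels of different genes are not compared with each other. HEC were deeper than CapEC, with medians of 7542 and 6947 UMIs per cell (control library, COUPOE replicate 1) against 1471 and 2189.5. A lower CPM in HEC is therefore a lower share of the UMIs and need not mean fewer molecules per cell.

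**Figure D1:**
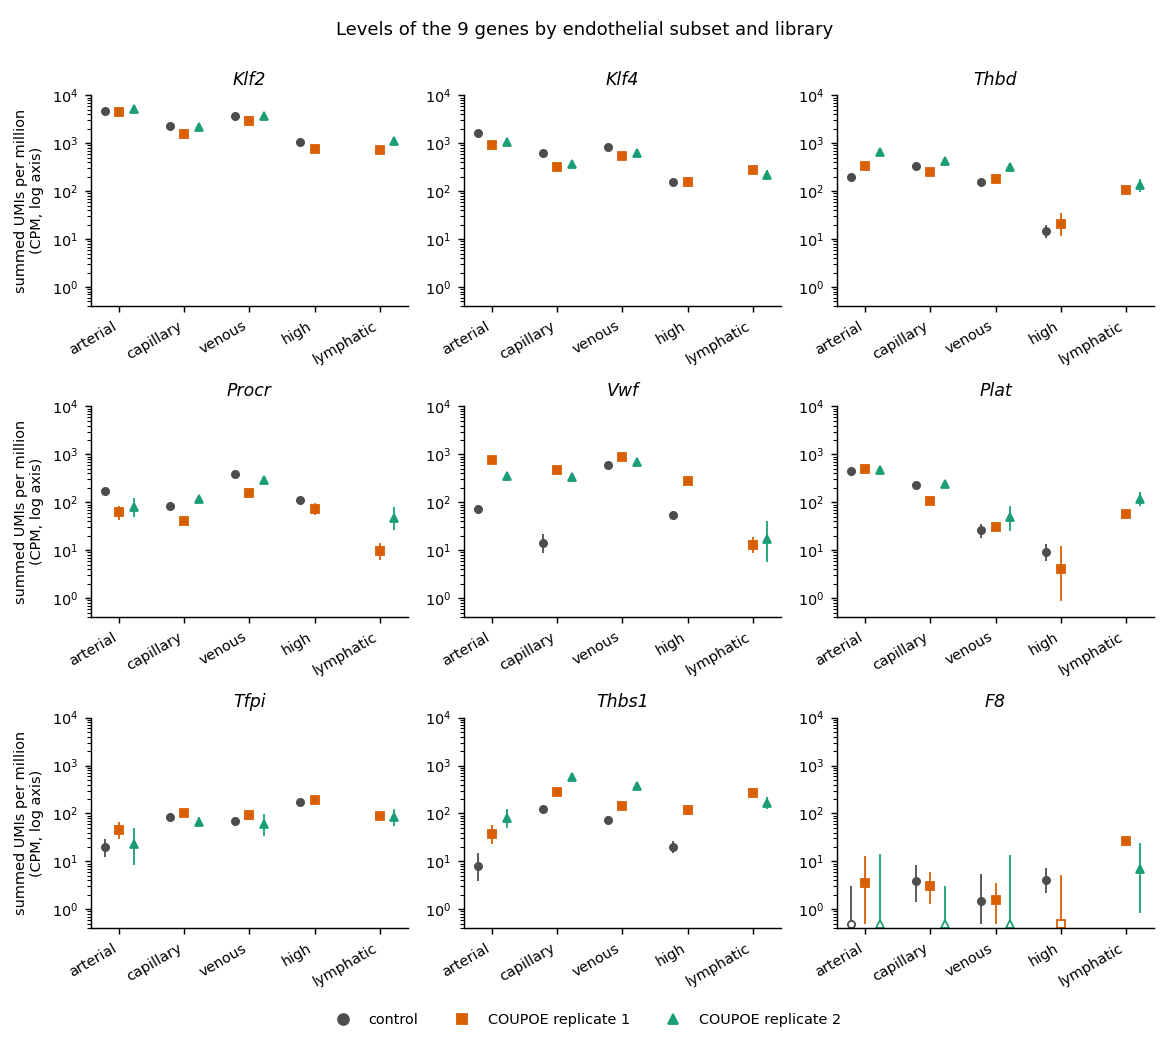
Levels of the 9 genes (CPM of summed UMIs, log axis) in 5 EC subsets; points are the control library and the 2 COUPOE libraries, vertical lines are exact 95% Poisson counting intervals, and open points stand at 0 UMIs. Control Vwf is at 14.1 CPM in CapEC and 590 CPM in venous EC, whereas COUPOE Vwf lies between 278 and 886 CPM in arterial, capillary, venous and high EC.

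Both shear-responsive factors had the same order of subsets among blood EC. Klf2 was highest in arterial EC, at 4683 CPM in the control library and at 4573 and 5225 CPM in COUPOE replicates 1 and 2. Klf2 followed in venous EC at 3732, 2913 and 3781 CPM and in CapEC at 2264, 1575 and 2173 CPM. HEC had 1085 and 759 CPM (control, COUPOE replicate 1), and COUPOE LEC had 719 and 1093 CPM. Klf2 was thus detected in every subset, and no subset outside arterial EC reached an arterial value. Between neighbours in this order, edgeR's quasi-likelihood test with the library as a block gave a log2 difference of 0.41 ± 0.12 (SE) for arterial over venous EC (adjusted p = 0.0268) and of -0.88 ± 0.12 for capillary minus venous EC (adjusted p = 6.03e-05). CapEC exceeded HEC by 0.68 ± 0.14 on the log2 scale (adjusted p = 0.00143), and in the fit HEC exceeded LEC by 0.52 ± 0.16 (edgeR adjusted p = 0.0208). Only COUPOE replicate 1 gave sums of both HEC and LEC, which holds for every test between them. There the Klf2 intervals overlapped (HEC 759 CPM, 697 to 826, and LEC 719 CPM, 685 to 754).

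Klf4 was likewise highest in arterial EC, at 1628 CPM in the control library and 909 and 1060 CPM in the COUPOE libraries. Venous EC had 844, 545 and 630 CPM and CapEC 619, 319 and 370 CPM. The lowest Klf4 levels were those of HEC (154 and 158 CPM) and LEC (272 and 219 CPM in the COUPOE libraries). Per cell the HEC were not low, the control library having 445 Klf4 UMIs among 384 HEC and 965 among 873 CapEC. For Klf2 the same cells had 3127 and 3527 UMIs. Arterial over venous and venous over capillary EC passed the test (log2 differences 0.74 ± 0.15 and, as capillary minus venous, -0.73 ± 0.15; edgeR adjusted p = 0.00165 and 0.00238), as did CapEC over LEC (0.65 ± 0.18, edgeR adjusted p = 0.0105), whereas HEC and LEC were not told apart (HEC minus LEC -0.53 ± 0.20, edgeR adjusted p = 0.0571). Over the 13 sums of a subset and a library with at least 10 cells, Pearson's r between log2 Klf2 and log2 Klf4 was 0.93, a description only because the points share 3 libraries. The genes whose pattern was most like that of Klf2 were Tm6sf1, Ptprr and Gpx7 (r = 0.95, 0.95 and 0.94), and for Klf4 Nuak1, Ppp2r2a and Nos3 (r = 0.93, 0.92 and 0.92), the last being endothelial nitric oxide synthase.

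**Figure D2:**
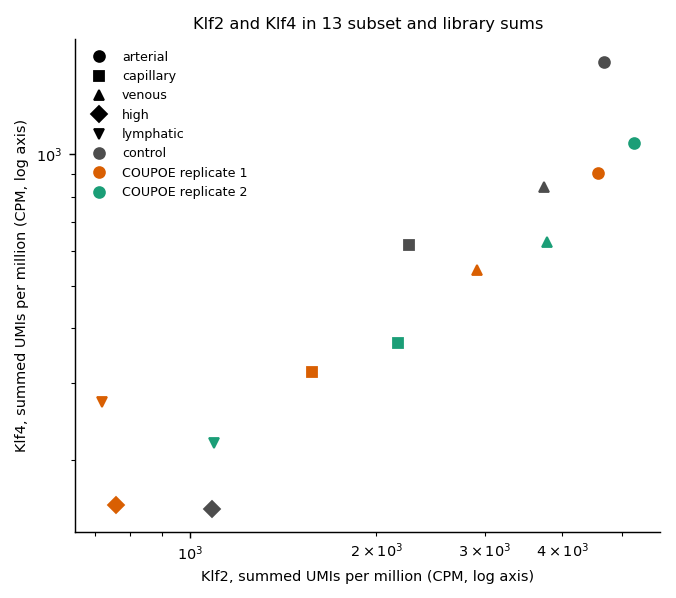
Klf4 against Klf2 (CPM, both axes log) in the 13 sums of an EC subset and a library, with subsets by marker shape and libraries by colour. Arterial sums lie at the upper right and HEC and LEC at the lower left, and in arterial, venous and capillary EC both COUPOE points have less Klf4 than the control point.

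Klf4 stood lower in both COUPOE libraries in each of the 3 subsets with values from both. In arterial EC the log2 ratio of Klf4 to the control library was -0.84 (exact 95% counting interval -0.98 to -0.70) in COUPOE replicate 1 and -0.62 (-0.80 to -0.44) in replicate 2. In CapEC the ratios were -0.96 and -0.74, and in venous EC -0.63 and -0.42, every interval lying below 0. None reached the 2-fold rule by which genes were called. In pericytes and smooth muscle cells Klf4 was also lower, at 1021 CPM in the control library and at 428 and 572 CPM in the COUPOE libraries. That class carried endothelial RNA, 8 of 8 blood EC markers summing to 2605, 2942 and 558 CPM there. The part of that RNA in these Klf4 values was not tested. In HEC the Klf4 interval spanned 0 (log2 ratio 0.03, -0.28 to 0.33, in COUPOE replicate 1). In the unnamed blood EC Klf4 was higher in both COUPOE libraries, at 356, 407 and 836 CPM. Their clusters differed, with 97 of 102 control cells in cluster 4 and 139 of 160 replicate 2 cells in cluster 2. Inside cluster 4 Klf4 was at 359, 263 and 352 CPM. Klf2 ratios lay between -0.52 and 0.16 in arterial, capillary and venous EC. In capillary resident progenitor-like EC both genes were lower in both COUPOE libraries, Klf2 at 1810, 588 and 1237 CPM and Klf4 at 544, 135 and 277 CPM. How much of any such difference is less RNA per cell and how much fewer expressing cells of a subset cannot be told apart from these sums.

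The 3 protein C and tissue factor pathway members had different homes. Thbd had its highest levels in arterial EC and CapEC, with 201, 331 and 664 CPM in arterial EC of the control library and COUPOE replicates 1 and 2, and 335, 248 and 436 CPM in CapEC. Venous EC had 154, 181 and 317 CPM. HEC had only 14.9 and 20.7 CPM, and 104 and 133 CPM were counted in COUPOE LEC. Arterial EC and CapEC were not told apart (log2 difference 0.09 ± 0.20, edgeR adjusted p = 0.910), nor were CapEC and venous EC (0.62 ± 0.20, adjusted p = 0.0542). The arterial against capillary value averages opposite orders. In the control library CapEC had more Thbd than arterial EC, and in both COUPOE libraries CapEC had less. Arterial over venous EC (0.71 ± 0.20, adjusted p = 0.0249), venous EC over LEC (1.12 ± 0.25, adjusted p = 0.00235) and LEC over HEC (HEC minus LEC -1.87 ± 0.33, adjusted p = 3.22e-04) each passed. Thbd was thus detected in all 5 subsets and lowest in HEC. Tspan9, Tmed5 and Ndel1 were most like it (r = 0.95, 0.94 and 0.94).

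Procr, the receptor that presents protein C to thrombomodulin, peaked elsewhere, in venous EC. It was at 393, 157 and 287 CPM there, at 172, 61.3 and 79.2 CPM in arterial EC and at 82.8, 41.0 and 118 CPM in CapEC. HEC had 111 and 73.3 CPM and LEC 9.65 and 47.8 CPM. Venous EC exceeded each other subset (arterial minus venous -1.42 ± 0.24, edgeR adjusted p = 4.27e-04; venous over high 1.16 ± 0.27, adjusted p = 0.00486). High, arterial and capillary EC were not told apart (arterial minus high -0.26 ± 0.29, adjusted p = 0.548; arterial over capillary 0.50 ± 0.26, adjusted p = 0.352; capillary minus high -0.75 ± 0.28, adjusted p = 0.0559), and LEC lay below CapEC (1.84 ± 0.37, adjusted p = 9.30e-04). The closest patterns were those of Nfkbiz, Id2 and Cish (r = 0.91, 0.89 and 0.88).

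Tfpi had the reverse of the Klf pattern, with r = -0.81 to Klf2 and -0.89 to Klf4 over the 13 sums. HEC had most, at 176 and 192 CPM in the control library and COUPOE replicate 1. CapEC had 84.7, 103 and 66.0 CPM, venous EC 68.8, 91.1 and 59.6 CPM, and LEC 88.9 and 85.4 CPM. These 3 subsets were not told apart (capillary minus venous 0.11 ± 0.19, venous minus lymphatic 0.05 ± 0.24, edgeR adjusted p = 0.837 and 0.932), whereas HEC exceeded venous EC (venous minus high -1.53 ± 0.20, adjusted p = 3.58e-05). Arterial EC had least, at 19.6, 45.5 and 22.6 CPM, below LEC by -1.45 ± 0.28 (edgeR adjusted p = 8.57e-04). Ctsl and Tfg were among the genes most like it (r = 0.92 and 0.89).

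Plat, which starts fibrin breakdown, had its highest levels in arterial EC and its lowest in HEC. Arterial EC had 443, 492 and 472 CPM in the control library and COUPOE replicates 1 and 2, and CapEC had 232, 107 and 240 CPM. LEC had 58.3 and 120 CPM, venous EC 25.9, 31.1 and 48.4 CPM, and HEC 9.02 and 4.15 CPM. All neighbours in this order differed, from arterial over capillary (1.38 ± 0.22, edgeR adjusted p = 4.73e-04) and capillary over lymphatic EC (1.29 ± 0.30, adjusted p = 0.00289) to lymphatic over venous (venous minus lymphatic -1.07 ± 0.32, adjusted p = 0.0213) and venous over high EC (1.73 ± 0.43, adjusted p = 0.00761). Rdx, Sox18 and Mpzl1 had the closest patterns (r = 0.97, 0.95 and 0.95), Sox18 being an endothelial transcription factor.

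F8 was at the edge of detection and did not pass the filter on low counts. It was counted mainly in LEC, with 64 UMIs among 922 cells of COUPOE replicate 1 (26.8 CPM, exact 95% Poisson interval 20.7 to 34.3) and 2 UMIs among 127 cells of replicate 2 (6.83 CPM, 0.83 to 24.7). Blood EC subsets had between 0 and 12 UMIs per library. In control arterial EC 0 UMIs were counted, which at 3 counts allows up to 2.45 CPM. Intervals and floors cover counting error only. F8 levels were most like those of Plau, Cd2 and Ripor3 (r = 0.93 for each), Plau being the urokinase gene. These r values rest mostly on LEC of COUPOE replicate 1, the sum with 64 F8 UMIs.

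Across all 10 pairs of subsets, 64 of the 80 differences of the 8 tested genes passed the threshold. Arterial EC had 3 members higher and 2 lower than CapEC (4.15% and 3.3% of all 10130 genes), 4 higher and 4 lower than venous EC (6.59% and 6.88%), and 4 higher and 2 lower than HEC (14.4% and 14.8%). CapEC had 1 higher and 4 lower than venous EC (4.63% and 5.53%) and 5 higher and 1 lower than HEC (12.6% and 13.3%), and venous EC had 6 higher and 1 lower than HEC (8.9% and 9.37%). Against LEC, 6 members were higher and 2 lower in arterial EC (12.6% and 11.9% of all genes), 7 and 0 in CapEC (13.6% and 12.6%), 5 and 1 in venous EC (12.6% and 11.3%), and 4 and 2 in HEC (15.6% and 14%). Since the library block takes out the mean of a library but not a genotype difference that varies between subsets, the levels of Vwf, Thbs1 and Thbd in control and COUPOE libraries are given apart.

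Vwf had the largest ratio of COUPOE to control of any member in CapEC, where the control library had least of it among blood EC subsets. Control CapEC had 22 Vwf UMIs among 873 cells (14.1 CPM), whereas COUPOE CapEC had 484 CPM in replicate 1 and 337 CPM in replicate 2, which is 34.2-fold and 23.9-fold more (log2 ratios 5.10, 4.49 to 5.78, and 4.58, 3.96 to 5.27). The size depended on the cells taken. The log2 ratios were 6.07 and 5.64 at Louvain resolution 0.6 and 4.42 and 3.94 at resolution 1.6. They were 4.45 and 3.81 with at least 2000 UMIs per cell. In male cells they were 3.50 and 3.31, but the control library had only 32 male CapEC. At its low Vwf level the male ratios may be bounds set by the floor of 3 counts. They therefore cannot show whether the size depended on sex. In arterial EC Vwf went from 71.0 CPM to 746 and 347 CPM, 10.5-fold and 4.89-fold. Venous EC had 590 CPM in the control library and 886 and 708 CPM in the COUPOE libraries, 1.5-fold and 1.20-fold. The arterial and capillary COUPOE values, 337 to 746 CPM, thus lay far above their own controls. Summed levels of other vessel markers moved with them. The 10 venous markers summed to 985, 1928 and 1801 CPM in CapEC and to 816, 1641 and 977 CPM in arterial EC. The 14 arterial markers summed to 3524, 1025 and 1462 CPM in CapEC, and the part of either list in the Vwf difference was not tested. Selp, Ackr1 and Vcam1 are on the venous list, and the study reports them as unchanged by Nr2f2 overexpression. Levels of single venous markers are not given here. Vwf also stood higher in HEC of COUPOE replicate 1 (55.5 and 278 CPM, log2 ratio 2.32, 2.02 to 2.63) and in capillary resident progenitor-like EC (64.9, 217 and 209 CPM). LEC of the COUPOE libraries had 13 and 17.1 CPM, with no control value to set beside them. The 11 HEC markers were also lower in COUPOE HEC, summing to 89800 CPM in the control library and 20505 CPM in replicate 1, and their part in the HEC values was not tested. In the unnamed blood EC, whose clusters differed between libraries, Vwf was at 181, 720 and 960 CPM. Inside cluster 4, which held 97 of the 102 control cells, it was at 184, 454 and 541 CPM.

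**Figure D3:**
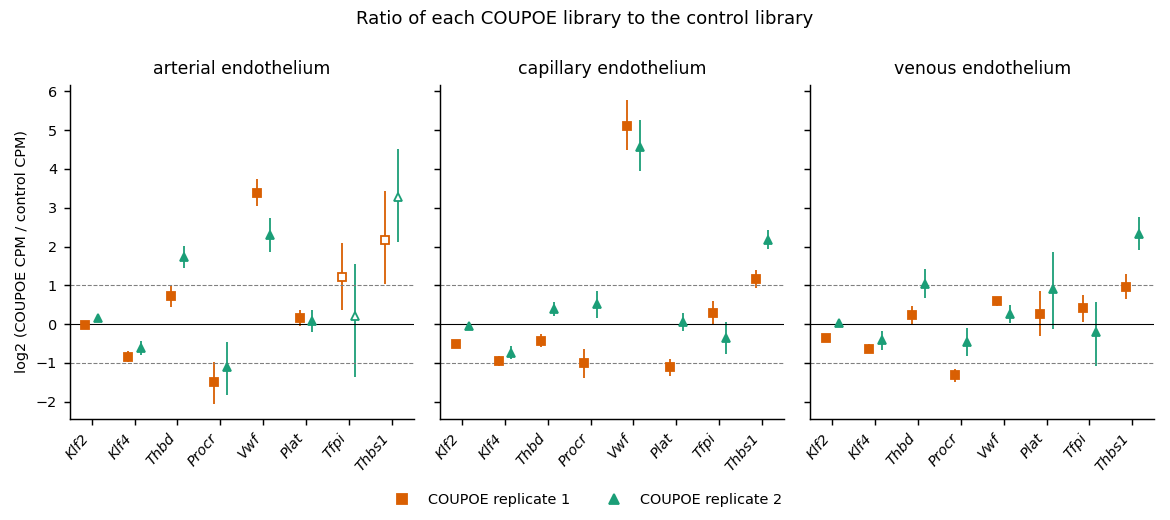
Log2 ratio of each COUPOE library to the control library for 8 genes in arterial, capillary and venous EC, with exact 95% counting intervals; dashed lines mark 2-fold and open points genes under 50 UMIs in every library. Vwf lies at 5.10 and 4.58 in CapEC and at 0.59 and 0.26 in venous EC, and both Klf4 points lie below 0 in each panel.

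By the rule of at least 2-fold in the same direction in both COUPOE libraries, 2 of the 9 members were called in arterial EC (Vwf higher, Procr lower), 2 in CapEC (Vwf and Thbs1, both higher) and 0 in venous EC. Among all genes tested, 1.64% were called higher and 3.17% lower in arterial EC, 3.91% higher and 2.29% lower in CapEC, and 3.2% higher and 1.66% lower in venous EC. In HEC, where only COUPOE replicate 1 could be set against the control, 6.2% of genes stood 2-fold or more above it and 4.94% stood 2-fold or more below. When the 2 COUPOE libraries were tested against the 1 control library with edgeR's quasi-likelihood test, with 1 residual degree of freedom, Vwf passed in CapEC (log2 difference 4.88 ± 0.56, adjusted p = 0.0403) and not in arterial EC (3.06 ± 0.61, adjusted p = 0.270). That test called 11 genes higher and 10 lower of 6377 in CapEC and 0 of 3913 in arterial EC, where 231 had an unadjusted p under 0.05. In venous EC it called 5 higher and 8 lower of 6750, none of them a member, and 449 genes had an unadjusted p under 0.05.

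The size of the Vwf difference depended on the subset. A test of the difference between ratios, fitted with edgeR on the 9 arterial, capillary and venous sums, gave 4.45 ± 0.32 on the log2 scale for capillary minus venous EC (adjusted p = 6.12e-12) and 2.59 ± 0.27 for arterial minus venous EC (adjusted p = 3.94e-08). The capillary ratio also exceeded the arterial one (arterial minus capillary -1.85 ± 0.39, edgeR adjusted p = 0.00545). Within COUPOE replicates 1 and 2 the capillary minus venous differences were 4.51 and 4.31. Of 7116 genes, 2.12% passed between capillary and venous EC and 1.45% in each of the other pairs. With 2 residual degrees of freedom, these tests take their spread from the 2 COUPOE libraries alone. They rest on the 1 control library and share it, so no spread between controls enters their SE or p-values.

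CapEC of the 2 genotypes fell largely into different clusters, so Vwf was also read within single clusters. In capillary cluster 3, led by Car4 and Scgb3a1 and holding 489 control cells, Vwf was at 5.49 CPM in the control library and at 387 and 380 CPM in the 57 and 48 COUPOE cells. In cluster 5, led by Scgb3a1 and Esm1, it went from 15.2 CPM to 247 and 151 CPM. In arterial cluster 7, led by Kcne3, Sema3g and Gja5, the values were 70.0, 475 and 325 CPM, and in arterial cluster 11, led by Bmp2 and Col8a1, they were 19.3, 544 and 329 CPM. The 2 venous clusters had 540 and 724 CPM in the control library and between 700 and 1068 CPM in the COUPOE libraries. Vwf was therefore higher in both COUPOE libraries inside each of these 4 arterial and capillary clusters.

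**Figure D4:**
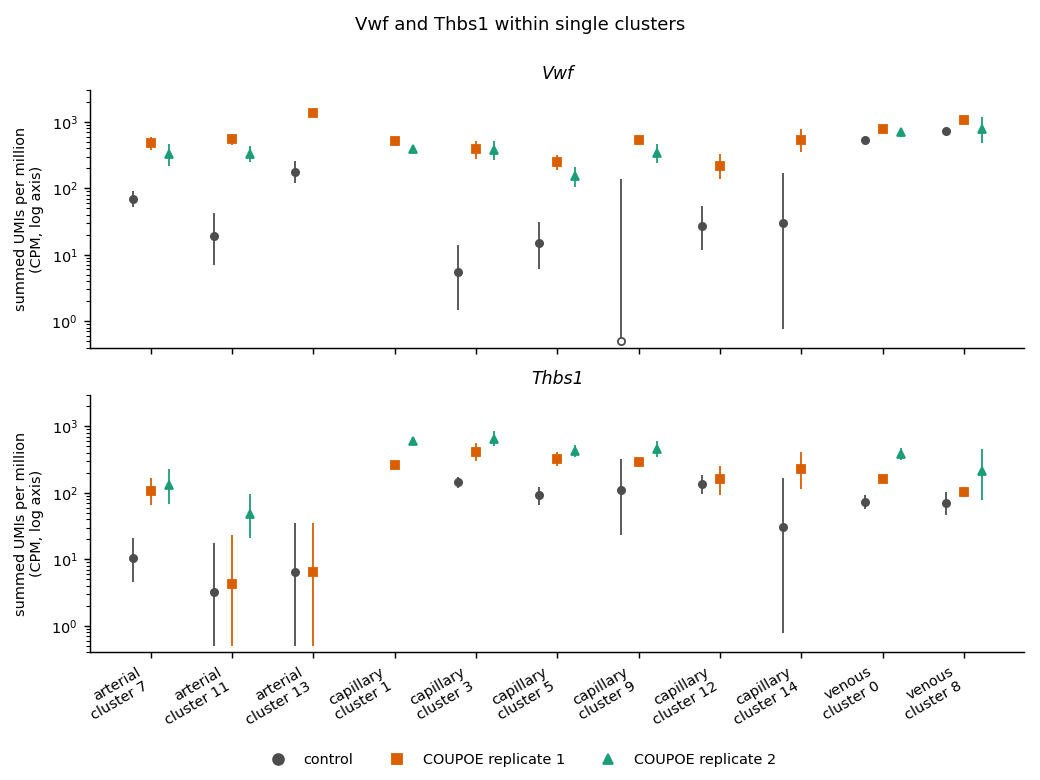
Vwf and Thbs1 (CPM, log axis) in each arterial, capillary and venous cluster with at least 10 cells of a library; lines are exact 95% Poisson intervals and an open point stands at 0 UMIs. Control Vwf lies below both COUPOE values in capillary clusters 3 and 5 (5.49 and 15.2 CPM against 151 to 387 CPM), and control Thbs1 lies below both in the same clusters.

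More cells carried the transcript, too. After every cell was thinned to 1000 UMIs, 0.69% of control CapEC (exact 95% binomial interval 0.25 to 1.49) and 35.1% and 26.0% of COUPOE CapEC had a Vwf UMI (2.41%, 58.7% and 44.6% unthinned). Thinned COUPOE CapEC with an Nr2f2 UMI had 482 and 362 CPM of Vwf in replicates 1 and 2. Those without an Nr2f2 UMI had 455 and 283 CPM, and the intervals overlapped in each library. A cell that expresses Nr2f2 can have 0 of its UMIs after thinning. The split therefore cannot set cells with Nr2f2 expression against cells that lack it. In LEC of the same COUPOE libraries, which had nearly the same depth (median 2391.5 and 1990 UMIs per cell against 2189.5 and 2114.5 in CapEC), the thinned share was 0.65% and 1.57%, below the capillary share of the same library. The pericyte class, with the endothelial RNA described above, had 25.6, 372 and 14.0 CPM of Vwf. Ecm1, Calml4 and Myof had the patterns most like Vwf (r = 0.92, 0.91 and 0.89). Platelets also carry Vwf RNA. The 6 platelet markers summed to 3.85, 23.3 and 25.9 CPM in CapEC, higher in both COUPOE libraries, and to 0, 3.50 and 0 CPM in arterial EC. Gp9, Gp1bb and Tubb1 were at 0 in CapEC of all 3 libraries, so Pf4, Ppbp and Itga2b made up the CapEC sums. The part of platelet RNA in the Vwf values was not tested. Erythroid markers, in contrast, summed to 3869, 310 and 33.4 CPM in CapEC, and their part in the CapEC values was not tested.

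Thbs1, the antiangiogenic matrix protein, had a higher level than the control library in every COUPOE sum of the named blood EC subsets with at least 10 cells. Control CapEC had 125 CPM and COUPOE CapEC 278 and 563 CPM (log2 ratios 1.16, 0.93 to 1.39, and 2.18, 1.94 to 2.41). Venous EC had 72.5, 141 and 365 CPM, and the ratio of replicate 1, 0.96 (0.65 to 1.29), lay just short of 2-fold. Arterial EC had 10, 21 and 21 UMIs (8.16, 36.8 and 79.2 CPM) and did not pass the filter on low counts. In HEC Thbs1 was at 20.1 and 119 CPM and in progenitor-like EC at 81.2, 517 and 700 CPM. The pericyte class, which carried endothelial RNA, had 86.0, 43.3 and 181 CPM, lower than the control in replicate 1 and higher in replicate 2.

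The COUPOE libraries also differed from each other in Thbs1, and edgeR's test against 1 control library missed the threshold (CapEC 1.82 ± 0.62, adjusted p = 0.426; venous EC 1.85 ± 0.68, adjusted p = 0.593). Inside capillary cluster 3 Thbs1 was at 144, 415 and 657 CPM and inside cluster 5 at 91.4, 325 and 432 CPM, whereas in cluster 12 the intervals of the 99 control and 28 replicate 1 cells overlapped (134 CPM, 95.3 to 183, and 160 CPM, 92.9 to 255). Immediate early and dissociation genes moved beside it in CapEC, where all 18 were detected, 7 were called higher and 0 lower (Atf3 at 205, 865 and 1174 CPM, for example), and their summed level was 11517, 21033 and 29103 CPM. In venous EC the summed level was 23260, 24266 and 32889 CPM with none called. Their part in the Thbs1 difference was not tested. Among the 5 tested subsets, CapEC had the most Thbs1 but were not told apart from venous EC (0.74 ± 0.27, edgeR adjusted p = 0.107), and arterial EC had least, below HEC by -1.58 ± 0.43 (adjusted p = 0.00891). 3830406C13Rik, Gm4951 and Tcea1 had the patterns most like it (r = 0.88, 0.86 and 0.85).

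Of the protein C pathway members, Procr was lower in both COUPOE libraries in arterial EC (172, 61.3 and 79.2 CPM, log2 ratios -1.49, -2.05 to -0.97, and -1.12, -1.84 to -0.47). It was also lower in venous EC, by -1.33 in replicate 1 but only -0.46 in replicate 2, and in CapEC the replicates lay on opposite sides of the control (-1.02 and 0.51). Procr was not called in arterial EC without cluster 11 (mean log2 ratio -0.89), at Louvain resolution 0.6, in male cells or in female cells. Thbd was higher in arterial EC of both COUPOE libraries, with log2 ratios of 0.72 (0.44 to 1.00) and 1.73 (1.44 to 2.01). It was also higher in venous EC of both, at 0.23 (0.0015 to 0.47) and 1.04 (0.66 to 1.41). The arterial minus venous difference of ratios was 0.62 and did not pass. In CapEC Thbd straddled the control, so that arterial and capillary ratios (-0.44 and 0.38 in CapEC) lay apart. The difference between those ratios, arterial minus capillary, was 1.29 ± 0.22 (edgeR adjusted p = 3.72e-04) and was 1.16 and 1.35 within replicates 1 and 2.

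In arterial cluster 11 Thbd was at 205, 434 and 834 CPM, whereas in cluster 7 it was at 205, 164 and 411 CPM, higher than the control in replicate 2 only. In cluster 13 Thbd was at 172 CPM (114 to 251) in 66 control cells and at 363 CPM (275 to 470) in 49 replicate 1 cells. Replicate 2 had only 5 cells there. Without cluster 11 the difference between ratios was 0.74 ± 0.27 and no longer passed (edgeR adjusted p = 0.271). The Plat intervals spanned 0 in arterial EC (0.15, -0.06 to 0.36, and 0.09, -0.20 to 0.37), but single clusters differed. Plat was at 448, 945 and 963 CPM in cluster 7 and at 356, 240 and 213 CPM in cluster 11. In cluster 13 it was at 594 and 363 CPM in the control library and replicate 1. Over all CapEC Plat was lower in replicate 1 only (-1.12 against 0.05). Inside capillary cluster 3 it was at 259, 286 and 133 CPM and inside cluster 5 at 307, 379 and 627 CPM. Clusters 1 and 9, at 81.7 and 65.5 CPM in replicate 1, held only 9 and 13 control cells. Tfpi ratios in CapEC were 0.28 and -0.36 and in venous EC 0.41 and -0.21, opposite in sign between the COUPOE libraries. F8 had too few UMIs for a ratio in any of the 3 subsets.

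The other genes of these pathways are counted beside the shares called over all genes, 1.64% higher and 3.17% lower in arterial EC, 3.91% and 2.29% in CapEC, and 3.2% and 1.66% in venous EC. Of the flow sensing and KLF list, 27 of 31 genes were measured well enough in CapEC and 0 were called, with median log2 ratios of -0.35 and -0.24 beside 0.03 and -0.12 over all genes. In arterial EC 1 of 23 was called, Ace, which makes angiotensin II and is bound to endothelium (646, 312 and 309 CPM). In venous EC 2 of 28 were called, Ace lower (152, 70.8 and 52.2 CPM) and the calcium channel gene Trpv4 higher on 2, 63 and 3 UMIs. No member of the list was called higher in arterial EC or CapEC.

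Of the anticoagulant list, 1 gene was called, the thrombin receptor gene F2r, lower in venous EC (60.6, 15.7 and 14.9 CPM), 6 of 14 genes being tested there and in CapEC and 5 in arterial EC. The coagulation factor list had 4, 4 and 5 of 17 genes tested in arterial, capillary and venous EC and 0 called. The fibrinolysis list had 2, 4 and 4 of 10 tested and 0 called. Of the 17 genes for von Willebrand factor storage, release and clearance, 7, 8 and 9 were tested. Rab3d, a small GTPase of secretory granules, was lower in arterial EC (50.6, 17.5 and 11.3 CPM) and venous EC (58.4, 24.3 and 14.9 CPM), and Stab1, a scavenger receptor gene, was higher in CapEC (37.2, 77.0 and 75.2 CPM). The median log2 ratios of this list in CapEC were -0.46 and -0.31, below those of all genes. Of the platelet inhibition and thrombospondin receptor list, 4, 5 and 5 of 11 were tested and 1 was called, Ptgs1, the cyclooxygenase-1 gene, higher in CapEC (40.4, 197 and 163 CPM).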

How the data were processed

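Per the labels, PP blood EC were sorted and profiled by droplet 3′ single-cell RNA sequencing in 3 libraries, 1 control and 2 COUPOE. The deposited values are raw UMI counts per gene and cell barcode, made by the authors with Cell Ranger (3.0.2 in the submitters' processing notes, 3.1.0 in the header of COUPOE replicate 1) against mm10. The protocol names both a v3 platform and a v2 kit. The kit of each library is not given in the sources used here.

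Filters kept cells with 500 genes or more, 1000 UMIs or more and a mitochondrial share of 10% or less, and 132, 46 and 4 Scrublet doublets (scanpy 1.11.5, expected rate 0.06) were left out. Libraries were integrated and clustered in 2 rounds with Seurat 5.3.0 in R 4.3.3 (reciprocal PCA, Louvain resolution 1), leaving out of the variable genes the members, their pathway lists, Nr2f2, Madcam1, St6gal1 and sex-linked genes. Clusters were named from marker lists. UMIs were summed per subset and library with at least 10 cells.

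Subset pairs were tested with edgeR 4.0.16 (quasi-likelihood, TMM, library block, Benjamini-Hochberg over all genes, threshold 0.05). Genotypes were set side by side as ratios of CPM, and genes that reached 50 UMIs in any library were called at 2-fold in both COUPOE libraries. Counting intervals are at 95%, and likeness used log2(CPM + 10). The test of ratios between subsets, which was not planned, was added after the data were seen. Tests were tried on simulated data. Genes named are the 9 members, Nr2f2, up to 3 list genes per direction and subset, and the 3 genes most like each member, of which 1 is not reported here. The members and lists were chosen with earlier results of these data known. Alternatives used DESeq2 1.42.0 and other filters, resolutions and cell sets. Gene coordinates are those of GENCODE vM21.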

Additional observations from a re-analysis of the deposited data

Results flagged for a closer look

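The following differences of the COUPOE to control ratio between EC subsets passed the edgeR test of the difference itself. For Vwf the log2 ratio was larger in capillary than in venous EC by 4.45, larger in arterial than in venous EC by 2.59, and smaller in arterial than in capillary EC (arterial minus capillary -1.85). For Thbd it was larger in arterial than in capillary EC by 1.29. The Vwf differences from venous EC passed in each of 5 other settings of cells and clusters, with ranges of 3.57 to 5.46 and 2.38 to 2.55. The other differences did not pass with at least 2000 UMIs per cell (Vwf -1.15, adjusted p = 0.349, and Thbd 0.92, adjusted p = 0.0711), and the Thbd difference also did not pass without arterial cluster 11 (0.74, adjusted p = 0.271).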

How the results depend on the processing

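Of 290 recomputed COUPOE to control ratios of members, 264 moved by less than the replicate spread and 26 moved by more. Leaving out a COUPOE replicate could not move a ratio beyond that spread. Reversal was counted only for called members, with 0 reversed. The mean log2 ratio of Thbd in CapEC, which was not called, went from -0.03 to 0.08 by edgeR. Of 2 members called in arterial EC, 4 were called at 1.5-fold, 1 in male cells (Thbd), 1 without cluster 11 (an alternative chosen after seeing the data; Vwf) and 0 by edgeR; without either COUPOE replicate 2 to 3 were called. Thbs1 joined them (3 called) with at least 10 UMIs and with no filter on low counts. It took the place of Procr at Louvain resolution 0.6, as Thbd did in female cells. Of 2 called in CapEC, 1 was called at Louvain resolution 0.6, 1 with at least 2000 UMIs per cell, 1 in male cells and 1 by edgeR, each time Vwf, and 2 to 4 without a COUPOE replicate. In venous EC, with 0 called, Thbs1 made it 1 at 1.5-fold, at Louvain resolution 1.6, with at least 2000 UMIs per cell, in clusters with 20 cells of every library and in female cells, and 1 to 2 were called without a COUPOE replicate. Without COUPOE replicate 1 these were Thbd and Thbs1, and without replicate 2 it was Procr.

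Of the 80 differences between subsets, 64 passed, but only 33 without the library block. Of 720 recomputed differences, 62 were no longer past the threshold, 21 became so and 17 reversed. Reversed log2 differences were, by setting: Louvain resolution 0.6, Thbs1 arterial against high 0.11 and Tfpi capillary against venous -0.0494; resolution 1.6, Tfpi capillary against venous -0.0677; DESeq2 size factors, Vwf capillary against high -0.19 and Tfpi venous against lymphatic -0.0103. With at least 2000 UMIs Tfpi venous against lymphatic was -0.0903, and without the block it was -0.0497 and that of Thbs1 -0.0240. Leaving out each library in turn, controls included, gave ranges of -0.15 to 0.53 for Thbd arterial against capillary, -0.0350 to 1.00 for Vwf arterial against high, -0.60 to 0.58 for Vwf capillary against high, -0.22 to 0.34 for Tfpi capillary against lymphatic, -0.38 to 0.19 for Tfpi venous against lymphatic and -0.47 to 1.32 for Thbs1 venous against lymphatic. The cause was not tested.

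No paired analysis was possible because no label pairs the 1 control library with either COUPOE library. With 1 control library, and 93 venous cells in COUPOE replicate 2, counting error understates the error between mice.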
